A study of Mus musculus with 18 samples.

Results

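The acute-phase and antimicrobial secreted proteins described here are the products of 8 mouse genes, Lcn2, Saa1, Saa2, Saa3, Serpina3n, C3, Ltf and Hp. The genes were taken by name, and all 8 were found among the 55536 genes counted. They were measured by RNA sequencing in 18 cultures of mammary epithelial organoids, small clusters of cells grown in a gel, with 3 biological replicates in each of 6 groups. Every culture came from mammary glands of C57BL/6 mice aged 6 to 7 weeks, and grew in matrigel. The basal medium, DMEM/F12 with added insulin, selenium and transferrin, was common to all groups. The organoids were either RasGRP1-/- (KO) or wild type (WT). RasGRP1 is an exchange factor that loads Ras with GTP. In each genotype they were treated for 5 days with 1 of 3 additions. ERW medium held EGF at 2.5 nM, NGS-Wnt at 0.1 nM and Rspo2 at 8.3 nM. EGF medium held EGF alone at 2.5 nM. RW medium held NGS-Wnt at 0.1 nM and Rspo2 at 8.3 nM with no EGF. EGF is a growth factor that activates Ras and ERK. NGS-Wnt is a designed protein that stands in for a Wnt ligand, and R-spondin 2, shortened to Rspo2, strengthens Wnt signalling. Each medium is set against another, and cultures without these factors were not analysed here. The labels number the batches 1 to 3, and each batch holds 1 library of every group.

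Acute-phase proteins are secreted proteins whose blood level changes sharply in inflammation. The liver makes most of them, driven by IL-6 through STAT3 and by IL-1 and TNF through NF-kB and C/EBP factors, but epithelia of the gut, lung and mammary gland make several of the same proteins locally. In the mammary gland, lactoferrin and lipocalin 2 enter milk or the involuting gland, where they bind iron or iron-carrying siderophores and so limit bacterial growth. Serum amyloid A proteins carry lipid and bind bacterial outer membrane. C3 is the central component of complement, haptoglobin binds free haemoglobin, and Serpina3n inhibits serine proteases.

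The libraries held 24290097 to 31269899 counts, and mitochondrial genes took 1.28% to 2.54% of each. Rasgrp1 itself was near the limit of detection, with 0 to 9 counts in the 9 KO libraries (25 in all) and 6 to 28 in the 9 WT libraries (145 in all). The labels do not state which part of the gene the allele removes, so this is a weak check of the genotypes. Keratins that mark mammary epithelium were abundant, with Krt8 at 12874 to 26292 counts and Krt14 at 28029 to 102591 counts per library. Genes that define other cells were also counted. The adipocyte genes Fabp4 and Plin1 had at least 819 and 130 counts in every library, the fibroblast gene Col1a1 at least 4544 and the endothelial gene Pecam1 at least 612. In bulk RNA, fewer cells of a type and less RNA per cell cannot be told apart. Levels are given as CPM, in which edgeR scales the counts of every library to the same total, and differences as log2 fold changes with their standard error (SE). A difference is called at an adjusted p under 0.05 in edgeR's quasi-likelihood test over all 17092 tested genes with the batch as a term. All 8 genes passed the filter on low counts.

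The 8 genes differed widely in level. Because transcripts differ in length, levels were compared between genes as CPM per kilobase of the annotated coding transcript, averaged over the 18 libraries. Lcn2 stood first at 3201 CPM per kilobase, followed by Hp at 256, C3 at 115, Saa3 at 56.5 and Ltf at 32. Saa1 at 10.9, Saa2 at 9.09 and Serpina3n at 8.71 were last and close together. In raw counts the lowest library held 35429 counts of Lcn2, 9214 of C3 and 3440 of Hp, against 47 of Saa2 and 78 of Saa1, so Saa2 and Saa1 carry the most counting error.

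**Figure D1:**
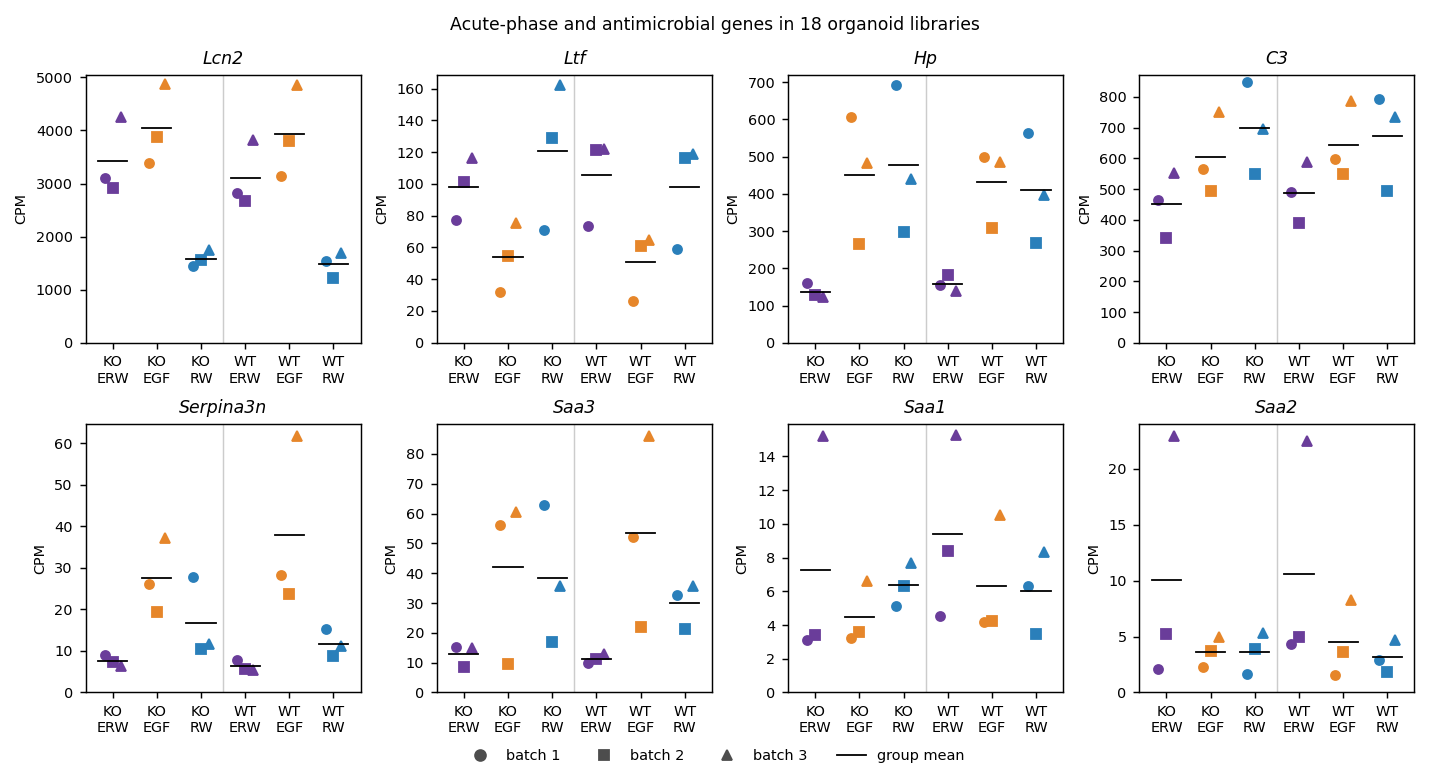
Level in CPM (linear axis) of each of the 8 genes in the 18 libraries, with KO groups left of WT groups and the media in the order ERW, EGF and RW, symbols for batches 1 to 3 and a line at each group mean. Lcn2 stands at 1223 to 1754 CPM in the 6 RW libraries and at 2675 CPM or more in the other 12, Ltf is low in EGF medium, and Hp is at 124 to 182 CPM in the 6 ERW libraries against 265 to 692 CPM elsewhere.

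Lcn2 (lipocalin 2, Ensembl ENSMUSG00000026822, chr2:32384633-32388252 on GRCm38, minus strand) and Ltf (lactoferrin, ENSMUSG00000032496, chr9:111019271-111042767, plus strand) are both secreted antimicrobial proteins that keep iron from bacteria, and their levels moved in opposite ways between EGF and RW media. Their promoter windows are shown because the data contrast them. Each runs from 250 bases before to 50 bases after the RefSeq start on GRCm38.p6, at chr2:32387690-32387989 and chr9:111019042-111019341, printed 5′ to 3′ on the strand of the gene. Capitals mark matches on either strand to TTNNGNAA, a core of the site bound by C/EBP factors.
Lcn2: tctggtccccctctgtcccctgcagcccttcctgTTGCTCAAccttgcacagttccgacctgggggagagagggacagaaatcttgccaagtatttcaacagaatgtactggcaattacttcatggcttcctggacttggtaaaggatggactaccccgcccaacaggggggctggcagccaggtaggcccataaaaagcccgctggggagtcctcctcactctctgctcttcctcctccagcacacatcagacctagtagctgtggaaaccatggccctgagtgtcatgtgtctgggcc
Ltf: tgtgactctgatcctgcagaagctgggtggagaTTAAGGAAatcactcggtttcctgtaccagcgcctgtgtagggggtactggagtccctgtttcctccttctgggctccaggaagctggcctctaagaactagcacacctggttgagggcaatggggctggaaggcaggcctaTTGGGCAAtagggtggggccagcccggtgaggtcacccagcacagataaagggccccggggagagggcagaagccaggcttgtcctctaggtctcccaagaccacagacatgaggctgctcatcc
The Lcn2 window held 1 such match and the Ltf window 2. Of 32851 RefSeq promoter windows of the same length, 40.7% held at least 1, so a match is common. The RefSeq table had a window for 7 of the 8 genes, all but Hp, and each of the 7 held a match, with 3 matches in C3, 4 in Saa3, 2 in Saa1, 1 in Saa2 and 2 in Serpina3n. The other searched motifs were the NF-kB consensus, TTCNNNGAA for STAT factors and TGANTCA for AP-1, on both strands. They occur in 4.51%, 8.3% and 7.81% of all windows and in 0 of these 7. Matches are letters in a window of 300 bases and say nothing of binding.

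Lcn2 was higher in both media with EGF than in RW medium, in both genotypes. Batches 1, 2 and 3 of KO organoids had 3102, 2916 and 4248 CPM in ERW medium, 3395, 3873 and 4871 CPM in EGF medium, and 1447, 1551 and 1754 CPM in RW medium. Those of WT organoids had 2815, 2675 and 3815 CPM in ERW medium, 3144, 3807 and 4857 CPM in EGF medium, and 1533, 1223 and 1699 CPM in RW medium. Every library with EGF lay above every library without it. Against RW medium, EGF medium gave a log2 fold change of 1.34 ± 0.09 (SE, n = 3 each, adjusted p = 6.17e-08, edgeR) in KO organoids and 1.39 ± 0.10 (adjusted p = 3.35e-08) in WT organoids, a 2.53-fold and 2.63-fold higher level. ERW medium against RW medium gave 1.09 ± 0.09 (adjusted p = 1.13e-06, edgeR) in KO and 1.05 ± 0.09 (adjusted p = 2.23e-06) in WT. Adding NGS-Wnt and Rspo2 to EGF moved Lcn2 far less. ERW against EGF medium gave -0.25 ± 0.09 (adjusted p = 0.102, edgeR) in KO, which was not called, and -0.34 ± 0.09 (adjusted p = 0.0191) in WT, where it fell, with overlapping groups. The WT call was lost without the batch term (adjusted p = 0.465) and on leaving out EGF replicate 2 (0.0932) or 3 (0.0947), ERW replicate 2 (0.0973), batch 2 (0.161) or batch 3 (0.196), all in edgeR. The medium took 87.8% of the variance of log2 Lcn2 over the libraries, the largest share among the 8 genes, and the batch 9.22%.

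Ltf was lower in EGF medium than in the other 2 media in each batch and in both genotypes. KO organoids had 77.5, 101 and 116 CPM in ERW medium, 31.7, 54.9 and 75.1 CPM in EGF medium, and 70.8, 129 and 162 CPM in RW medium. WT organoids had 73.5, 121 and 122 CPM in ERW medium, 26.1, 60.7 and 64.9 CPM in EGF medium, and 59.1, 116 and 119 CPM in RW medium. Within each genotype the EGF libraries did not overlap those in ERW medium but did overlap those in RW medium, and batch 1 was the lowest in every group. EGF against RW medium gave -1.16 ± 0.13 (SE, n = 3 each, adjusted p = 1.35e-05, edgeR) in KO organoids and -0.99 ± 0.13 (adjusted p = 5.24e-05) in WT organoids, and the 3 batches gave -1.23 to -1.11 in KO and -1.18 to -0.87 in WT. ERW against EGF medium gave 0.93 ± 0.13 (adjusted p = 3.91e-04, edgeR) in KO and 1.12 ± 0.13 (adjusted p = 7.04e-05) in WT. ERW and RW media were not called apart, with -0.23 ± 0.13 (adjusted p = 0.294, edgeR) in KO and 0.14 ± 0.13 (adjusted p = 0.617) in WT. Leaving out KO ERW replicate 1 or all of batch 1 brought the KO value to -0.41 (adjusted p = 0.0364) and -0.43 (adjusted p = 0.0497) in edgeR. The batch took 41.2% of the variance of Ltf. Without the batch term 0 of the 4 calls held (edgeR adjusted p of 0.136 and 0.237 for EGF against RW medium in KO and WT, 0.377 and 0.196 for ERW against EGF medium).

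Hp (haptoglobin, ENSMUSG00000031722, chr8:109575128-109579172, minus strand), which binds haemoglobin released from red cells, was lower in ERW medium than in either other medium, in both genotypes. KO organoids had 161, 127 and 124 CPM in ERW medium, 606, 265 and 482 CPM in EGF medium, and 692, 297 and 440.3 CPM in RW medium. WT organoids had 155, 182 and 140.3 CPM in ERW medium, 498, 309 and 485 CPM in EGF medium, and 563, 269 and 396 CPM in RW medium. Each ERW library was below every library of the other media, and batch 2 was the lowest of the 3 in both of those media. ERW against EGF medium gave -1.65 ± 0.25 (SE, n = 3 each, adjusted p = 0.00205, edgeR) in KO organoids and -1.37 ± 0.25 (adjusted p = 0.00356) in WT organoids. ERW against RW medium gave -1.73 ± 0.25 (adjusted p = 9.21e-04, edgeR) in KO and -1.26 ± 0.25 (adjusted p = 0.00671) in WT. EGF against RW medium was not called, with -0.07 ± 0.24 (adjusted p = 0.907, edgeR) in KO and 0.10 ± 0.24 (adjusted p = 0.853) in WT. Leaving out batch 3 took all 4 Hp calls past the threshold (edgeR adjusted p of 0.0519 and 0.186 against RW medium in KO and WT, 0.115 and 0.192 against EGF medium). For ERW against RW medium in WT, leaving out batch 1 (0.139) or fitting the compared groups alone (0.164) also lost the call.

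C3 (complement component 3, ENSMUSG00000024164, chr17:57203970-57228136, minus strand), which is cut to tag microbes and start the later complement steps, was also lower in ERW medium than in the other media, by a smaller margin. KO organoids had 463, 339.8 and 551 CPM in ERW medium, 564, 495 and 751 CPM in EGF medium, and 847, 548 and 696 CPM in RW medium. WT organoids had 489, 388 and 588 CPM in ERW medium, 597, 548 and 785 CPM in EGF medium, and 792, 492 and 734 CPM in RW medium. The groups overlapped, but within each batch the ERW library was the lowest of the 3 media in both genotypes. ERW against RW medium gave -0.64 ± 0.11 (SE, n = 3 each, adjusted p = 0.00105, edgeR) in KO organoids and -0.46 ± 0.11 (adjusted p = 0.0125) in WT organoids. ERW against EGF medium gave -0.43 ± 0.11 (adjusted p = 0.0194, edgeR) in KO and -0.41 ± 0.11 (adjusted p = 0.0204) in WT, and EGF against RW medium was not called (adjusted p = 0.251 in KO and 0.836 in WT). The batch took 44.1% of the variance of C3. Without the batch term the edgeR adjusted p was 0.205 and 0.465 for ERW against RW medium in KO and WT, and 0.498 and 0.472 for ERW against EGF medium. The calls against EGF medium were lost on leaving out EGF replicate 2 or 3, ERW replicate 1 or 2, or batch 2 or 3 (edgeR adjusted p of 0.0636 to 0.214 in KO and 0.0659 to 0.215 in WT). The WT call against RW medium was lost without ERW replicate 1 (0.0729), RW replicate 1 (0.0883), batch 1 (0.0547) or batch 2 (0.107).

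Serpina3n (ENSMUSG00000021091, chr12:104406729-104414329, plus strand), a secreted inhibitor of serine proteases that counts among the acute-phase genes of the mouse, was lower in ERW than in EGF medium in both genotypes. KO organoids had 9.02, 7.41 and 6.41 CPM in ERW medium, 26.2, 19.5 and 37.3 CPM in EGF medium, and 27.8, 10.4 and 11.7 CPM in RW medium. WT organoids had 7.73, 5.72 and 5.49 CPM in ERW medium, 28.2, 23.7 and 61.8 CPM in EGF medium, and 15.4, 8.67 and 11.2 CPM in RW medium. Within each genotype the ERW libraries lay below all libraries of EGF and RW media, and batch 3 of WT in EGF medium stood highest of all. ERW against EGF medium gave -1.83 ± 0.36 (SE, n = 3 each, adjusted p = 0.0064, edgeR) in KO organoids and -2.56 ± 0.37 (adjusted p = 6.07e-04) in WT organoids, a 3.56-fold and 5.88-fold lower level. EGF against RW medium gave 0.78 ± 0.35 (adjusted p = 0.186, edgeR) in KO, which was not called, and 1.69 ± 0.36 (adjusted p = 0.00519) in WT. The difference between the genotypes in that response was -0.91 ± 0.49 (SE, adjusted p = 1, edgeR), so the responses were not shown to differ. RW replicate 1 of KO was the high library. Without it the KO value was 1.23 (adjusted p = 0.0324, edgeR), and without all of batch 1 it was 1.32 (adjusted p = 0.0461). ERW against RW medium was not called, at -1.05 ± 0.36 (adjusted p = 0.0782, edgeR) in KO and -0.87 ± 0.36 (adjusted p = 0.168) in WT. DESeq2 called both (adjusted p = 0.0101 and 0.049), and edgeR called the KO value without RW replicate 3 (0.0379) or batch 3 (0.028). Fitting the compared groups alone, edgeR called both (adjusted p = 0.0352 in KO and 0.00613 in WT). Leaving out batch 2 lost the calls for EGF against RW medium in WT (edgeR adjusted p = 0.0957) and for ERW against EGF medium in KO (0.0849).

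Serpina3n has many similar copies beside it on chromosome 12, and 6.9% of the 50-base windows of its transcript occur in another of them, so reads could be split or shared. It took 59.6% to 91.1% of the counts of the 11 Serpina3 copies in a library. The pseudogene Serpina3e-ps, which holds 54 of the shared windows, the most of any gene, is not among the 11. Serpina3n itself is 1 of them. In KO organoids its share was 66.6% to 68.5% in ERW, 81.2% to 91.1% in EGF and 64.1% to 80.2% in RW medium. In WT organoids it was 66.7% to 73.6% in ERW, 86.7% to 90% in EGF and 59.6% to 72.6% in RW medium. With the counts of the copies summed, ERW against EGF medium gave -1.49 ± 0.30 (SE, adjusted p = 0.00705, edgeR) in KO and -2.20 ± 0.31 (adjusted p = 4.68e-04) in WT for Serpina3n and its copies together. EGF against RW medium gave 0.51 ± 0.29 (adjusted p = 0.323) and 1.23 ± 0.30 (adjusted p = 0.0112). Summed, ERW against RW medium in KO was called, at -0.98 ± 0.30 (adjusted p = 0.0486, edgeR).

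The 3 serum amyloid A genes are neighbours on chromosome 7, Saa3 (ENSMUSG00000040026, chr7:46711998-46715700, minus strand), Saa1 (ENSMUSG00000074115, chr7:46740497-46742980, minus strand) and Saa2 (ENSMUSG00000057465, chr7:46751790-46754313, plus strand). Saa1 and Saa2 are the forms made by liver in the acute phase, and Saa3 is the form made mainly outside the liver in the mouse, including in adipose tissue and epithelia. Their promoter windows are shown because they show how alike the copies are. They lie at chr7:46742931-46743230, chr7:46751583-46751882 and chr7:46715627-46715926 of GRCm38.p6 in RefSeq and are printed 5′ to 3′ on the strand of each gene, with the same motif in capitals.
Saa1: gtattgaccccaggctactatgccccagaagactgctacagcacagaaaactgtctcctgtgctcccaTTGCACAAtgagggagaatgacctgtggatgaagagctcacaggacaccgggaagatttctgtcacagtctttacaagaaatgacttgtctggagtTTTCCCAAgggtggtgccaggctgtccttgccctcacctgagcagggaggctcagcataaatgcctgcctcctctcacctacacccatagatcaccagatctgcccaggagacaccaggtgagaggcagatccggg
Saa2: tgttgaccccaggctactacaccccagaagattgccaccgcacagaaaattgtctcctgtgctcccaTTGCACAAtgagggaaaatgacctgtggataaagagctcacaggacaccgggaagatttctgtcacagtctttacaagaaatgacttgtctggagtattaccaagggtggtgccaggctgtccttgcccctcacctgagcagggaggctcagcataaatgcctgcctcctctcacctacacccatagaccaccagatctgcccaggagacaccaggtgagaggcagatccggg
Saa3: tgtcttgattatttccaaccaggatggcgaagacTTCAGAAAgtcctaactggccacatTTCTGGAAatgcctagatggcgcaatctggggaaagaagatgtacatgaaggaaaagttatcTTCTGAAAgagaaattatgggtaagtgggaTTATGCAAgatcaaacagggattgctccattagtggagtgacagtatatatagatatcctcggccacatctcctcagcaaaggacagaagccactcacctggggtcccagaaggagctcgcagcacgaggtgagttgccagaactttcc
Aligned end to end, the Saa1 and Saa2 windows were identical at 96.0% of 299 positions, and Saa3 at 59.8% with Saa1 and 60.1% with Saa2. Their transcripts were 94.4% identical between Saa1 and Saa2, 76.8% between Saa1 and Saa3 and 74.9% between Saa2 and Saa3. Of the 50-base windows, 14.8% of Saa1, 9.12% of Saa2 and 1.78% of Saa3 occurred in another copy, so the split of reads between Saa1 and Saa2 is uncertain, while Saa3 shares little. The TTGCACAA match of Saa2 at 183 to 176 bases before the start stands 1 base nearer to the start in Saa1.

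Saa3 had its lowest group means in ERW medium, and passed the test in WT organoids against EGF medium. KO organoids had 15.2, 8.63 and 15 CPM in ERW medium, 56.1, 9.61 and 60.5 CPM in EGF medium, and 62.8, 16.8 and 35.8 CPM in RW medium. WT organoids had 9.99, 11.2 and 12.8 CPM in ERW medium, 52.1, 21.8 and 86.1 CPM in EGF medium, and 32.6, 21.4 and 35.7 CPM in RW medium. In batch 2 the level was low in all media of KO, and the KO groups in ERW and EGF media overlapped there, while the WT groups did not overlap. ERW against EGF medium gave -1.51 ± 0.45 (SE, n = 3 each, adjusted p = 0.0536, edgeR) in KO organoids, which missed the call, and -2.01 ± 0.46 (adjusted p = 0.0126) in WT organoids, a 4.02-fold lower level. ERW against RW medium gave -1.49 ± 0.45 (adjusted p = 0.054, edgeR) in KO and -1.32 ± 0.45 (adjusted p = 0.0958) in WT, with no overlap in either genotype, and EGF against RW medium was not called (adjusted p = 0.983 and 0.364). DESeq2 called all 4 ERW differences (adjusted p of 0.0108 and 2.35e-04 against EGF medium in KO and WT, 0.011 and 0.0344 against RW medium). The WT call was lost without the batch term (edgeR adjusted p = 0.0719) and on leaving out EGF replicate 3 (0.0718), ERW replicate 1 (0.0581) or 3 (0.0736), batch 1 (0.107) or batch 3 (0.286). The other Saa3 differences for ERW were called by edgeR without batch 2 (0.0155 and 0.0176 against EGF and RW medium in KO, 0.0278 against RW medium in WT). Those against EGF medium in KO and RW medium in WT were also called without KO EGF replicate 2 (0.0127) and WT ERW replicate 2 (0.0305). Fitting the compared groups alone, edgeR called ERW against RW medium in KO (adjusted p = 0.00479) and WT (1.7e-04).

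Saa1 and Saa2 passed the test in no comparison, and the high libraries were both ERW cultures of batch 3. Saa2 had 2.07, 5.2 and 22.9 CPM in ERW medium, 2.31, 3.69 and 4.98 CPM in EGF medium, and 1.67, 3.87 and 5.35 CPM in RW medium in KO organoids. In WT organoids Saa2 had 4.31, 4.93 and 22.5 CPM in ERW medium, 1.57, 3.61 and 8.22 CPM in EGF medium, and 2.92, 1.8 and 4.68 CPM in RW medium. Saa1 had 15.2 and 15.3 CPM in the same ERW libraries of KO and WT, and 3.09 to 10.5 CPM in the other 16. Summed, Saa1 and Saa2 stood at 38.1 CPM in KO and 37.8 CPM in WT in batch 3 of ERW medium, against 5.17 to 18.8 CPM elsewhere. Batch 3 was the highest batch of both genes in every group, and the batch took 61.2% of the variance of Saa1 and 57.5% of that of Saa2. ERW against RW medium gave Saa2 a log2 fold change of 1.08 ± 0.44 (SE, n = 3 each, adjusted p = 0.132, edgeR) in KO and 1.39 ± 0.44 (adjusted p = 0.0559) in WT. DESeq2 called the WT value (adjusted p = 0.0123) and ERW against EGF medium in WT (1.13, adjusted p = 0.0367). EdgeR called the first without RW replicate 1 (0.00803) or batch 1 (0.0261). Fitting the compared groups alone, edgeR called both WT values (adjusted p = 0.012 against RW and 0.0219 against EGF medium). For Saa1 and Saa2 summed, ERW against RW medium gave 0.41 ± 0.37 (adjusted p = 0.559, edgeR) in KO and 0.88 ± 0.37 (adjusted p = 0.162) in WT.

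Set beside all genes, the 8 were called at shares that changed with the comparison. For EGF against RW medium 1 of the 8 was higher and 1 lower in KO organoids, where 13.5% of all tested genes were called, 7.55% higher and 5.94% lower. In WT organoids 2 were higher and 1 lower, where 15.4% were called, 8.52% higher and 6.92% lower. For ERW against RW medium 1 was higher and 2 lower in KO, with 12.7% of all genes called, 6.1% higher and 6.65% lower. In WT 1 was higher and 2 lower, with 10.7% called, 4.92% higher and 5.82% lower. For ERW against EGF medium 1 was higher and 3 lower in KO, with 11.6% of all genes called, 5.17% higher and 6.48% lower. In WT 1 was higher and 5 lower, with 15.6% called, 6.85% higher and 8.78% lower. The median log2 fold change of the 8 in that comparison was -0.34 in KO and -0.37 in WT, and that of all tested genes was 0 in both. These comparisons share libraries, since each medium enters 2 of the 3.

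**Figure D2:**
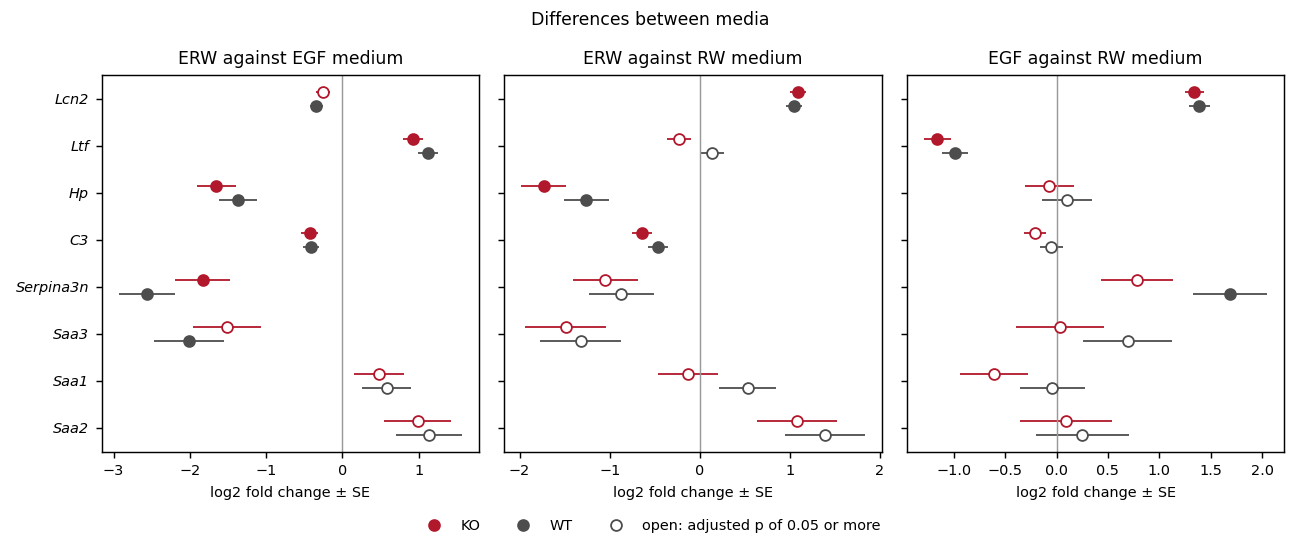
Log2 fold change with its SE of each of the 8 genes between media (linear axes of log2 values, scaled per panel), for KO (red) above WT (grey); open circles have an adjusted p of 0.05 or more in edgeR. Lcn2 is the one gene called right of 0 against RW medium in both panels and genotypes, and Ltf alone is right of 0 and called in ERW against EGF medium, where Hp, C3 and Serpina3n are left of 0 in both genotypes.

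Between KO and WT organoids 0 of the 8 genes were called in ERW medium, where 0.0819% of all tested genes were called, 0 in EGF medium, where 0.0702% were called, and 0 in RW medium, where 0.0819% were called (edgeR). DESeq2 also called 0 in each medium, and at an unadjusted p under 0.05 edgeR gave 0, 0 and 1. The last was Ltf in RW medium. It had 70.8, 129 and 162 CPM in KO against 59.1, 116 and 119 CPM in WT organoids. The log2 difference was 0.29 ± 0.13 (SE, adjusted p = 0.894, edgeR) and positive in 3 of 3 batches. Averaged over the media, the KO minus WT difference was 0.09 ± 0.05 for Lcn2, 0.11 ± 0.07 for Ltf, -0.01 ± 0.14 for Hp and -0.05 ± 0.06 for C3. It was 0.10 ± 0.20 for Serpina3n, -0.03 ± 0.26 for Saa3, -0.29 ± 0.19 for Saa1 and -0.05 ± 0.25 for Saa2. Again 0 of the 8 were called by edgeR or DESeq2, or had an unadjusted p under 0.05, against 0.339% of all genes called. The SE of these averages was 0.05 to 0.07 for Lcn2, C3 and Ltf and 0.19 to 0.26 for the serum amyloid A genes, so only differences well above those sizes could have been called. The 3 tests of whether a medium acts differently in KO and WT called 0 of the 8 and 0% of all genes by edgeR, with 0 of the 8 at an unadjusted p under 0.05 and 0 called by DESeq2.

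**Figure D3:**
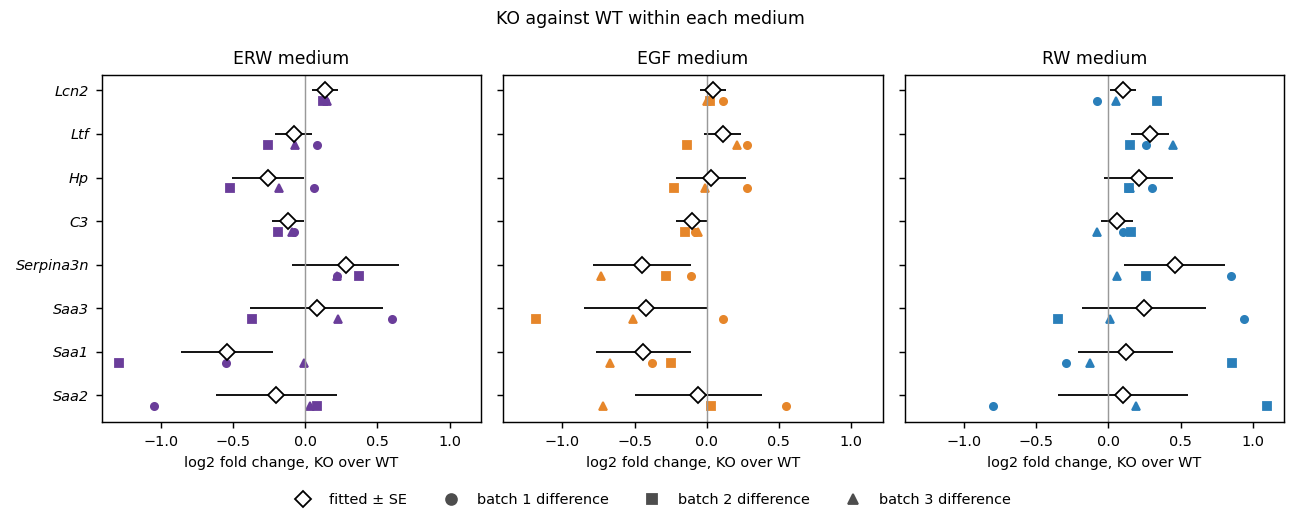
KO over WT log2 fold change of the 8 genes in each medium (linear axes), as the fitted value with its SE (diamonds) and as the difference within batches 1, 2 and 3 (circles, squares and triangles). The fitted values lie between -0.54 (Saa1 in ERW medium) and 0.46 (Serpina3n in RW medium), the 3 batches of Saa1 lie below 0 in ERW and in EGF medium, and those of Saa2 and Saa3 lie on both sides of 0 in every medium.

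Markers of other cells moved between the media as well. All 11 adipocyte markers fell in ERW against RW medium in both genotypes, by a median log2 fold change of -2.78 in KO and -2.62 in WT, where the median of all tested genes was 0. Against EGF medium 8 of 11 fell in KO (median -1.93) and 10 of 11 in WT (median -2.08). For EGF against RW medium 0 of 11 were called, with medians of -0.54 in KO and -0.46 in WT. In that comparison 13.5% of all tested genes were called in KO and 15.4% in WT. Of all tested genes 6.65% and 5.82% fell in KO and WT in ERW against RW medium, and 6.48% and 8.78% against EGF medium. Summed, the adipocyte markers ranged over 81.3 to 348 CPM in ERW, 299 to 987 CPM in EGF and 330.2 to 1622 CPM in RW medium in KO. In WT the sums were 74.6 to 429 CPM in ERW, 460 to 1124 CPM in EGF and 469.8 to 1607 CPM in RW medium. Without the batch term 0 of the adipocyte markers were called by edgeR in any of these. Haptoglobin, C3 and Saa3 are also made by adipocytes. Hp fell in the same medium, and its 3 most similar patterns below, with batch means removed, include the adipocyte genes Lpl and Plin1. Between batches the adipocyte sum and Hp did not always move together. In RW medium the adipocyte sum was 1536 and 330.2 CPM in batches 2 and 3 of KO, and 1607 and 469.8 CPM in WT. Hp rose between the same libraries, from 297 to 440.3 CPM in KO and from 269 to 396 CPM in WT. EGF medium had the same opposite directions, while in ERW medium both fell from batch 2 to batch 3. From batch 1 to batch 3 the sum and Hp both fell in every group. In RW medium the sum fell from 1622 to 330.2 CPM in KO and from 965 to 469.8 CPM in WT. Hp fell there from 692 to 440.3 CPM and from 563 to 396 CPM. Between batches 1 and 2 they moved alike in RW medium of KO and ERW medium of WT. In the other groups they moved in opposite ways. The part of adipocytes in the Hp, C3, Saa3 and Serpina3n differences was not tested.

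Fibroblast markers fell in ERW against EGF medium in 7 of 12 in KO and 9 of 12 in WT (medians -0.87 and -1.36). Their summed levels were 669 to 1263 CPM in ERW, 1049 to 2463 CPM in EGF and 1424 to 2497 CPM in RW medium in KO. In WT they were 585 to 1293 CPM in ERW, 1232 to 3194 CPM in EGF and 1070.3 to 2839 CPM in RW medium. Endothelial markers fell in 4 of 8 in KO and 8 of 8 in WT (medians -0.83 and -1.65) in the same comparison. When the batch term was dropped, edgeR called 0 fibroblast markers in either genotype there, and 0 endothelial markers in KO and 6 in WT. The endothelial sums were 186 to 229 CPM in ERW, 331 to 462 CPM in EGF and 267 to 615 CPM in RW medium in KO. In WT they were 125 to 195 CPM in ERW, 434 to 516 CPM in EGF and 272 to 392 CPM in RW medium. In ERW against EGF medium 6.48% of all tested genes fell in KO and 8.78% in WT. Against RW medium, where 6.65% and 5.82% fell, 5 of 12 fibroblast markers fell in KO and 6 in WT (medians -0.94 and -0.9). There 7 of 8 endothelial markers fell in each genotype (medians -1.17 and -1.19). Without the batch term edgeR called 3 and 2 of these fibroblast markers and 4 and 3 of these endothelial markers in KO and WT. Of 14 macrophage and leukocyte markers 2 fell in KO and 1 in WT in ERW against EGF medium, and 0 in either without the batch term. Their sum was 11.5 to 27 CPM in ERW, 22.1 to 73.5 CPM in EGF and 30.4 to 54 CPM in RW medium in KO, and 10.2 to 32.6, 21.4 to 176 and 41.3 to 82 CPM in the same media in WT. The highest leukocyte sum, 176 CPM, came from WT batch 3 in EGF medium, which was also the highest library for Saa3 and Serpina3n. That is 1 library, and RW medium differed. There the highest sum, 82 CPM, was in WT batch 3, with Saa3 at 35.7 and Serpina3n at 11.2 CPM. Both genes were highest in KO batch 1 (62.8 and 27.8 CPM), with a leukocyte sum of 54 CPM. Lcn2 and Ltf are abundant in neutrophil granules. Of 14 neutrophil markers Ly6g, Mpo and Retnlg had 0 counts in all libraries. Ngp had 1 count, Elane 10 and S100a9 57 over the 18 libraries together, and 6 of the 14 could be tested. The summed neutrophil markers were 28.9 to 90.1 CPM in ERW, 17.4 to 37.5 CPM in EGF and 9.33 to 19.3 CPM in RW medium in KO, and 39.1 to 66, 26.7 to 47.6 and 10 to 19.4 CPM in WT. In ERW medium most of that sum was S100a8, which epithelium also makes. Without S100a8, a choice made after the values were seen, the sum was 3.13 to 11.6 CPM in ERW, 4.25 to 15.4 CPM in EGF and 4.08 to 10.8 CPM in RW medium in KO, and 6.81 to 9.36, 7.51 to 20.8 and 5.94 to 13.7 CPM in WT. S100a8 was the one neutrophil marker that rose in any medium comparison, and Mmp9 fell in ERW against EGF medium in WT. The part of these cells in the results was not tested.

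**Figure D4:**
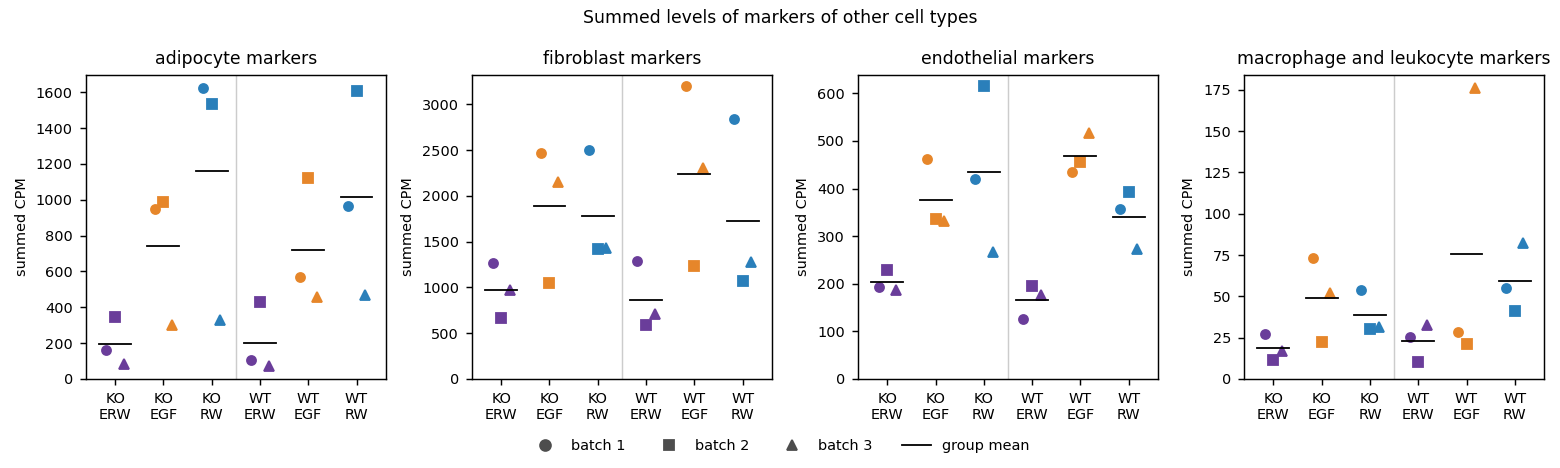
Summed CPM (linear axes) of adipocyte, fibroblast, endothelial and macrophage and leukocyte markers in the 18 libraries, KO groups left of WT groups, with symbols for the batches and a line at each group mean. The ERW groups have the lowest mean of the 3 media in all 4 panels, and the adipocyte sum in RW medium spans 330.2 to 1622 CPM.

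Markers of the mammary lineages moved too. Of all tested genes 13.5% in KO and 15.4% in WT were called for EGF against RW medium. The shares were 12.7% and 10.7% for ERW against RW medium. Of 13 luminal progenitor and alveolar markers 8 rose and 1 fell in EGF against RW medium in KO (median 0.41), and 7 rose and 2 fell in WT (median 0.40). In ERW against RW medium 8 rose and 1 fell in KO, and 7 rose and 1 fell in WT. Of 9 basal markers 7 fell and 0 rose in ERW against RW medium in each genotype (medians -0.75 in KO and -0.62 in WT), while 1 rose and 4 fell in KO and 0 rose and 4 fell in WT in EGF against RW medium. Of 8 hormone-sensing markers 6 rose and 1 fell in KO and 6 rose and 0 fell in WT in EGF against RW medium. With no batch term edgeR called 7 luminal progenitor and alveolar markers in each genotype, 2 hormone-sensing markers in KO and 3 in WT, and 3 basal markers in KO and 4 in WT in EGF against RW medium. In ERW against RW medium it then called 5 luminal progenitor and alveolar markers in each genotype, and 1 basal marker in KO and 0 in WT. Lcn2 and Ltf are both known as luminal genes of the mammary gland, and they moved apart in EGF medium. The part of lineage proportions in either gene was not tested.

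Some of the other acute-phase and complement genes differed between the media. Of 22 tested, 5 rose in KO and 6 in WT, with 0 lower, in EGF against RW medium (medians 0.03 and 0.33). The other 17 and 16 were not called. Of all tested genes 13.5% in KO and 15.4% in WT were called there. Ptx3, a secreted pentraxin that recognises microbes, gave 2.97 ± 0.36 in KO and 3.06 ± 0.37 in WT (SE, n = 3 each, edgeR adjusted p = 2.44e-04 and 1.73e-04). Cp (ceruloplasmin, the copper-carrying ferroxidase of plasma) averaged 559 ± 116 CPM in ERW, 1019 ± 95.8 CPM in EGF and 307 ± 22.6 CPM in RW medium in KO (SD, n = 3), and 545 ± 97.3, 1004 ± 174 and 251 ± 45.6 CPM in WT. The log2 fold change of Cp for EGF against RW medium was 1.73 ± 0.13 in KO and 2.01 ± 0.13 in WT (edgeR adjusted p = 4.42e-07 and 8.78e-08). Cfb, the protease subunit of the alternative C3 convertase, gave 1.62 ± 0.44 and 1.95 ± 0.44, and Fgg, the fibrinogen gamma chain, 1.20 ± 0.33 and 1.22 ± 0.33. In ERW against EGF medium 7 of the 22 fell in KO and 10 in WT, and 1 rose in each (medians -0.72 and -1.0). Of all tested genes 11.6% in KO and 15.6% in WT were called there. Among the largest falls were those of Itih4, an inter-alpha-trypsin inhibitor chain (-2.82 ± 0.75 in KO and -3.08 ± 0.75 in WT), the haem-binding Hpx (-2.01 ± 0.57 and -2.73 ± 0.61) and Ptx3 (-1.71 ± 0.35 and -1.97 ± 0.35), followed in KO by C1s1 (-1.0 ± 0.23). Lbp, which hands bacterial lipopolysaccharide to CD14, rose by 0.58 ± 0.16 in KO and 0.53 ± 0.16 in WT. Of all tested genes 12.7% in KO and 10.7% in WT were called in ERW against RW medium. Of the 22, 2 rose and 6 fell in KO there, and 2 rose and 4 fell in WT (medians -0.53 and -0.43). Those that rose were Cp (0.85 ± 0.13 in KO and 1.12 ± 0.13 in WT), Ptx3 in KO (1.26 ± 0.35) and Lbp in WT (0.74 ± 0.16). Among those that fell were Itih4 (-4.11 ± 0.77 in KO and -3.39 ± 0.75 in WT) and Cfd, the complement protease that adipocytes make (-2.78 ± 0.63 and -2.60 ± 0.61). Serping1, the C1 inhibitor (-1.10 ± 0.29), and C1s1 (-0.94 ± 0.23) fell in KO, and Hpx in WT (-2.07 ± 0.60). Without the batch term 1 of the 22 was called in each genotype for ERW against EGF medium, 1 in each for ERW against RW medium, and 2 in KO and 3 in WT for EGF against RW medium.

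Of 20 tested antimicrobial and mucosal defence genes 5 rose and 1 fell in KO, and 6 rose and 1 fell in WT, in EGF against RW medium. The median log2 fold change of the 20 was 0.02 in KO and 0.14 in WT. Of all tested genes 13.5% in KO and 15.4% in WT were called there. The shares of all genes were 12.7% and 10.7% for ERW against RW medium, and 11.6% and 15.6% for ERW against EGF medium. Bpifb5, of the family of bactericidal and permeability-increasing proteins, averaged 51.1 ± 16.2 CPM in ERW, 49.3 ± 18 CPM in EGF and 1.03 ± 0.443 CPM in RW medium in KO (SD, n = 3), and 36.3 ± 11.2, 41.4 ± 9.86 and 0.738 ± 0.335 CPM in WT. Its log2 fold change for EGF against RW medium was 5.56 ± 0.25 in KO and 5.80 ± 0.26 in WT (edgeR adjusted p = 9.56e-10 and 8.23e-10). Its relative Bpifb1 gave 3.40 ± 0.59 and 4.70 ± 0.66, and Wfdc2, a whey acidic protein relative, 1.95 ± 0.17 and 1.86 ± 0.17. S100a8, a calprotectin subunit that is also on the neutrophil list, gave 1.45 ± 0.24 and 1.84 ± 0.24. These have the direction of Lcn2 and not of Ltf. The gene that fell was Muc4, a membrane mucin below 1 CPM on average, which is named here after its value was seen. In ERW against RW medium 8 rose and 0 fell in each genotype (medians 0.08 in KO and 0.09 in WT). The largest changes there were those of Bpifb5 (5.61 ± 0.25 in KO and 5.59 ± 0.26 in WT), S100a8 (2.77 ± 0.24 and 2.78 ± 0.24), Bpifb1 (2.48 ± 0.58 and 3.41 ± 0.66) and Pglyrp1, which binds peptidoglycan (1.68 ± 0.30 and 1.5 ± 0.30). In ERW against EGF medium 4 rose and 2 fell in each genotype, and the 4 had the direction of Ltf. The other 14 were not called, and the medians of the list were -0.03 in KO and -0.11 in WT. Pglyrp1 gave 1.92 ± 0.31 in KO and 1.88 ± 0.30 in WT, and S100a8 gave 1.32 ± 0.22 and 0.94 ± 0.22. Pigr, which carries immunoglobulin A across epithelium, gave 0.62 ± 0.11 and 0.63 ± 0.11, and the milk-fat enzyme gene Xdh gave 0.48 ± 0.10 in both. Those that fell were Wfdc2 (-0.95 ± 0.16 and -0.74 ± 0.16) and Cd14 (-0.53 ± 0.11 and -0.61 ± 0.12). Without the batch term 0 of the 20 were called by edgeR in ERW against EGF medium, 5 in each genotype in EGF against RW medium, and 3 in KO and 5 in WT in ERW against RW medium.

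The next list holds cytokines and receptors linked to the control of acute-phase genes, and also Il1rn, an antagonist of interleukin 1. Among its 21 tested genes 9 rose and 1 fell in KO and 10 rose and 1 fell in WT in EGF against RW medium (medians 0.34 and 0.47). In ERW against EGF medium 8 fell in KO and 9 in WT, with 0 higher (medians -0.38 and -0.54). Of all tested genes 13.5% in KO and 15.4% in WT were called for EGF against RW medium. The shares were 11.6% and 15.6% for ERW against EGF medium, and 12.7% and 10.7% for ERW against RW medium. In EGF against RW medium the accessory interleukin 1 receptor chain Il1rap gave 1.17 ± 0.09 in KO and 1.24 ± 0.09 in WT, and the TNF receptor Tnfrsf1b 0.90 ± 0.27 and 1.28 ± 0.28. The interleukin 1 receptor Il1r1 gave 0.65 ± 0.11 and 0.97 ± 0.11, and Tlr2, a receptor for bacterial lipoprotein, 0.83 ± 0.12 and 0.92 ± 0.13 (SE, n = 3 each, edgeR adjusted p of 0.0373 or less for all 4 genes). The interleukin 17 receptor chain Il17rc fell (-0.29 ± 0.08 and -0.32 ± 0.08). In ERW against EGF medium Tnfrsf1b gave -1.51 ± 0.28 and -1.68 ± 0.28, Il1r1 -0.96 ± 0.11 and -1.16 ± 0.11, Tlr2 -0.60 ± 0.12 and -0.72 ± 0.12, and Il6st, the signalling chain shared by IL-6 family receptors, -0.61 ± 0.09 and -0.64 ± 0.09. The oncostatin M receptor Osmr gave -0.56 ± 0.11 and -0.71 ± 0.11. In ERW against RW medium 2 rose in each genotype, Il1rap (0.74 ± 0.09 and 0.71 ± 0.09) and the adaptor Myd88 (0.35 ± 0.07 and 0.37 ± 0.07). There Il6st fell in both (-0.57 ± 0.09 and -0.49 ± 0.09), and Il17rc in KO (-0.52 ± 0.08). The cytokine gene Il6 stood at 1.08 CPM on average and was not called in any medium comparison. Without the batch term 1 and 3 of the 21 were called in KO and WT for EGF against RW medium, 0 and 2 for ERW against EGF medium, and 1 and 0 for ERW against RW medium.

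Of 24 NF-kB, C/EBP and STAT3 factors and feedback genes 4 rose and 0 fell in KO, and 4 rose and 1 fell in WT, in EGF against RW medium, shares near the 13.5% and 15.4% of all tested genes. Over all 24 the median log2 fold change there was -0.15 in KO and 0.01 in WT. Cebpb gave 0.63 ± 0.10 in KO and 0.68 ± 0.10 in WT, Cebpd 0.57 ± 0.14 and 0.71 ± 0.14, Stat3 0.48 ± 0.09 and 0.60 ± 0.09, and Nfkbie, an inhibitor of NF-kB, 0.61 ± 0.14 and 0.83 ± 0.14 (SE, n = 3 each, edgeR adjusted p of 0.00963 or less). The gene that fell in WT was Tnip1, which restrains NF-kB (-0.25 ± 0.08). In ERW against RW medium 3 rose and 4 fell in KO, and 2 rose and 2 fell in WT (medians -0.2 and -0.12). Those that rose were Cebpb (0.45 ± 0.10 in KO and 0.55 ± 0.10 in WT), Stat3 (0.36 ± 0.09 and 0.40 ± 0.09) and, in KO, Cebpd (0.47 ± 0.14). Those that fell were Tnip1 (-0.33 ± 0.08 in KO and -0.39 ± 0.08 in WT), the NF-kB subunits Relb (-0.37 ± 0.09), Nfkb1 (-0.25 ± 0.06) and Nfkb2 (-0.24 ± 0.07) in KO, and Cebpa (-0.53 ± 0.15) in WT. In ERW against EGF medium Nfkbie gave -0.75 ± 0.14 and -0.95 ± 0.14, and Nfkb1 -0.21 ± 0.06 in both, and Relb fell in WT (-0.31 ± 0.09). Of the 24, the fit without the batch term called 2 in KO and 3 in WT for EGF against RW medium, 0 in each for ERW against RW medium, and 0 in KO and 1 in WT for ERW against EGF medium. Of 13 tested receptors and membrane regulators of the 8 proteins only Lrp1, a scavenger receptor that takes up protease and haem complexes, passed the test in any medium comparison, at -0.89 ± 0.17 in KO and -1.14 ± 0.17 in WT for ERW against EGF medium (edgeR adjusted p = 0.00443 and 6.17e-04, or 0.396 and 0.286 without the batch term). Against RW medium it gave -0.66 ± 0.17 and -0.63 ± 0.17. Of all tested genes 11.6% in KO and 15.6% in WT were called for ERW against EGF medium. The shares were 12.7% and 10.7% for ERW against RW medium, so 1 call among 13 is not above the share of all genes. Slc22a17, described as a receptor of lipocalin 2, averaged 41.2 ± 18.5 CPM in ERW, 35 ± 9.85 CPM in EGF and 38.4 ± 15.9 CPM in RW medium in KO (SD, n = 3), and 45.7 ± 15.5, 38.2 ± 11.2 and 43.6 ± 14.5 CPM in WT, and was not called. Trf (transferrin), the plasma relative of lactoferrin, did not follow it. EGF against RW medium gave Trf 1.53 ± 0.20 in KO and 1.5 ± 0.20 in WT (edgeR adjusted p = 6.14e-05 and 6.21e-05).

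Among themselves the 8 genes did not share 1 pattern. Over the 18 libraries, with the batch means removed, the log2 levels of Saa3 and Hp had a Pearson r of 0.92, C3 and Hp 0.85, Saa3 and Serpina3n 0.83 and Saa1 and Saa2 0.63. Lcn2 and Ltf had -0.64, Serpina3n and Ltf -0.74, and Saa2 and Hp -0.72. These are descriptions, since all libraries share the media and the batches. Among 11530 other genes of at least 4 CPM on average, the patterns most like that of Lcn2 were those of Lrp5 (r = 0.991), Crispld2 (0.986) and Trib2 (0.986). For Ltf they were Smtnl2 (0.953), Tlr5 (0.943) and Eif4ebp2 (0.932). For Hp they were Lrp3 (0.973), Lpl (0.969) and Plin1 (0.969). For C3 they were Thsd1 (0.922), Tns2 (0.921) and Ccdc3 (0.92), and for Serpina3n App (0.974), Cxcl12 (0.967) and Cst3 (0.96). For Saa3 they were Csf2rb2 (0.955), She (0.954) and Csf2rb (0.948). The nearest patterns were weaker for Saa2 (Aldh9a1 at 0.903, Higd2a at 0.86 and Asph at 0.84) and for Saa1 (Donson at 0.778, Gid8 at 0.738 and Fam207a at 0.734).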

How the data were processed

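RNA from the 18 organoid cultures was sequenced as single-end reads of 50 bases, per the labels' protocols. The authors deposited a table of counts per Ensembl gene, made with STAR and the GRCm38 genome per the submitters' processing notes. The sources used here give no versions, annotation, strand setting or treatment of reads with several matches. A second deposited table gives a normalized signal, each count divided by 1 size factor per library per the file headers, and names batch among the model terms; it supplied symbols and positions, and 3047 genes without a symbol kept their identifier. The signal was used only to check those factors (largest relative deviation 5.3e-04).

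The 8 genes and the gene lists were chosen with earlier results of these data known. Counts were scaled by TMM and tested with edgeR 4.0.16 (R 4.3.3), filterByExpr at a minimum count of 10 and total of 15, 1 mean for each of 6 groups plus a batch term over all 18 libraries, the robust quasi-likelihood F-test, two-sided, and Benjamini-Hochberg adjustment within each of 13 contrasts. DESeq2 1.42.0 was an alternative, as were fits with no batch term, RLE factors, no filter, only the groups compared, summed copies, and leaving out each library or batch. The block comes from the batch label; deviations of same-batch libraries from their group means correlated in all 45 pairs (r of 0.14 to 0.37). The fit was tested on simulated counts with known changes. With 3 libraries against 3 an exact permutation test cannot go below p = 0.1, so calls rest on the spread shared over genes. The labels call the replicates biological without saying which mice or cultures they came from. All members were named; of each list other than cell type markers, which are given mostly as counts and medians, up to 4 called genes per direction with the largest change and at least 1 CPM, and genes the sentence is about, were named, apart from 1 gene that is not reported here.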

Additional observations from a re-analysis of the deposited data

How the results depend on the processing

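No direction of a called value was reversed under any setting tried. Of 104 values for the 8 genes, RLE factors and no filter on low counts changed 0 calls, dropping the replicate block lost 10 and gained 0, DESeq2 gained 7 and lost 0, and the groups compared alone lost 1 and gained 6 of 72. The number of the 8 genes called for ERW against EGF medium was 4 in KO and 6 in WT, 2 and 2 with no replicate block, and 2 to 4 and 2 to 6 on leaving out 1 library or batch, the low ends without batch 3; in WT it was 3 without EGF replicate 3. For ERW against RW medium it was 3 in each genotype, 5 in KO and 6 in WT by DESeq2, and 5 in each with only the groups compared. For EGF against RW medium in KO it was 2, and 1 with no replicate block.

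Over all genes, the fit with no replicate block called 115, 439 and 729 in KO and 369, 404 and 888 in WT for ERW against EGF, ERW against RW and EGF against RW medium, where the fit with the batch called 1991, 2179 and 2306 in KO and 2672, 1835 and 2639 in WT. Leaving out 1 library or batch gave 366 to 1472, 945 to 1937 and 906 to 2008 in KO, and 653 to 2700, 785 to 1415 and 969 to 2557 in WT. Between KO and WT 14, 12 and 14 genes were called in ERW, EGF and RW medium and 58 averaged, against 6, 8, 5 and 22 with no replicate block, 30, 34, 29 and 190 by DESeq2, and 23, 7 and 1 with only the groups compared. Counting limits Saa1 and Saa2 most, with as few as 78 and 47 counts in a library. The SE of KO against WT within a medium was 0.43 to 0.46 for Saa3, 0.42 to 0.45 for Saa2 and 0.32 to 0.33 for Saa1.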
